A study of Mus musculus with 15 samples.

Results

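The aldo-keto reductases described here are 7 genes, Akr1b8, Akr1b3, Akr1a1, Akr1c12, Akr1c13, Akr1c14 and Akr1c19, out of 17185 genes in the count table. They were chosen by name, with earlier results of these data known, and all 7 were present. The data are single-cell RNA sequencing of the intestinal lining of 5 mice. Proximal and distal small intestine and colon of each mouse gave 15 libraries made with Seq-Well, a method that captures single cells in small wells. Every mouse was 6 months old and of the strain Lgr5-eGFP-IRES-CreERT2, whose allele places a green fluorescent reporter and a drug-inducible Cre recombinase at Lgr5, a gene of intestinal stem cells. The control group was 2 mice on a purified diet with 10% of kcal from fat, and the high fat diet group was 3 mice on a diet with 60% of kcal from fat. Counts of unique molecular identifiers (UMIs), which stand for single captured RNA molecules, were summed per mouse, organ and the authors' stem call. In each of the 18919 cells a stem call went with 1 or more UMIs of Lgr5 or eGFP, so the 2 populations are named stem-called cells (4618) and other cells (14301). Levels are counts scaled to 1e+06 UMIs of the sum (CPM), and mice are named by diet and number.

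Aldo-keto reductases are soluble enzymes that use NADPH to reduce aldehydes and ketones to alcohols. Akr1b3 is aldose reductase, which turns glucose into sorbitol in the polyol pathway, and Akr1b8 is a close relative that reduces aldehydes such as those formed from oxidised lipids and retinal. Akr1a1 is aldehyde reductase, which serves vitamin C synthesis in mice. The Akr1c enzymes reduce ketones on steroids and foreign compounds, and Akr1c14 is a 3-alpha-hydroxysteroid dehydrogenase. Several genes of the family in other species are targets of NRF2, a transcription factor of the response to oxidants, and the intestinal epithelium meets dietary aldehydes directly.

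In the mouse genome build GRCm38 (mm10), the 4 Akr1c members lay in 1 cluster on chromosome 13, Akr1c14 at chr13:4049011-4090688, Akr1c13 at chr13:4191150-4205596, Akr1c19 at chr13:4228700-4252843 and, on the opposite strand, Akr1c12 at chr13:4268176-4279433. Akr1b3 (chr6:34302434-34317478) and Akr1b8 (chr6:34354119-34368463) were neighbours on chromosome 6 on opposite strands, and Akr1a1 lay at chr4:116636510-116651680. Akr1b3 overlapped an antisense gene, Gm14546, while Akr1c14 and Akr1c19 each overlapped a pseudogene, Gm18857 and Marcksl1-ps4. Akr1c12 and Akr1c13 were the closest pair, with 96.2% of 972 aligned coding bases the same. Akr1c19 shared 77.9% with Akr1c12, and Akr1b8 shared 72.1% with Akr1b3. Since the reads come from the 3′ ends of RNAs, the last 500 bases of each transcript were compared with the rest of the transcriptome in windows of 50 bases. Of 451 windows, 54 of Akr1c12 were also in Akr1c13, 61 of Akr1b3 were in a processed pseudogene, Gm12138, 11 of Akr1b8 were in a processed pseudogene, Gm5649, and none of Akr1a1, Akr1c14 or Akr1c19 was found in another gene. Counts of Akr1c12, Akr1c13 and Akr1b3 are therefore uncertain to the extent that the authors' counting split such reads.

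The stretches just upstream of 3 members are shown, from the RefSeq promoter table of GRCm38.p6, which held 6 of the 7 members (Akr1b3 had no entry). Akr1b8 is shown because its level differed most between organs, and Akr1c13 beside Akr1c12 because the pair are near copies. In Akr1b8 (chr6:34353896-34354118, plus strand) the capitals mark 2 GC boxes, the letters GGGCGG. In Akr1c13 (chr13:4190937-4191149, plus strand) and Akr1c12 (chr13:4279434-4279649, minus strand) the capitals mark the bases that differ or have no partner in the alignment of the pair.
Akr1b8: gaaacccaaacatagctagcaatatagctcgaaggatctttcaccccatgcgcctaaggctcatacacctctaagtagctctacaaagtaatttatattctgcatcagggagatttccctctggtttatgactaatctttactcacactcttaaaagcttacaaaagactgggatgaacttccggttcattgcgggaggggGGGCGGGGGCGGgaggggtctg
Akr1c13: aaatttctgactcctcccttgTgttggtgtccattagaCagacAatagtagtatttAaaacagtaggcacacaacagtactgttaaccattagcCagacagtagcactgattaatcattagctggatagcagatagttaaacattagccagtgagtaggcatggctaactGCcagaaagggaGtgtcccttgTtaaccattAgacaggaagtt
Akr1c12: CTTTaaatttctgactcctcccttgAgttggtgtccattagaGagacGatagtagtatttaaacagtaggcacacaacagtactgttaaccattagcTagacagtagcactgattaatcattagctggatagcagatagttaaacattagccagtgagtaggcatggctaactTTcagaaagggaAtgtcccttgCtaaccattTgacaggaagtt
The Akr1c12 and Akr1c13 stretches shared 203 of 217 aligned columns (93.5%), with 9 differing bases and 5 bases without a partner. On both strands of the 250 bases before the RefSeq start, the GC box was found in Akr1b8 and in none of the other 5 matched members, beside 32.7% of 32851 windows of the same length. For Akr1c14 (chr13:4059341-4059590) and Akr1c19 (chr13:4233490-4233739) this window lay inside the gene span given above, which starts further upstream. The antioxidant response element TGACNNNGC (10.2% of windows) and the nuclear receptor direct repeat with 1 base between its parts (0.0335% of windows) were in none of the 6. These matches describe letters in 1 short window and say nothing of binding.

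The sums held from 321496 to 13694552 UMIs for stem-called cells and from 1699260 to 28652200 for other cells, from 27 to 617 and from 297 to 1438 cells. Library medians ran from 2723 to 21609 UMIs per cell. The shallowest sum, stem-called cells of the colon of high fat mouse 2, held 27 cells, and single members there rest on 7 to 186 UMIs. A marker list of 8 stem cell genes, Lgr5 among them, summed to between 7550 and 11444 CPM in stem-called small intestine cells, above the 1329 to 3852 CPM of other cells. In the colon the 2 ranges were 3138 to 4224 and 821 to 1717 CPM. T-like and B-like cells, which should lack Lgr5, carried the call in part, at 1.54% of 324 and 28.0% of 193 cells in the T-like clusters (median 4246 and 14572 UMIs) and 6.81% of 426 and 0% of 32 cells in the B-like and plasma-like ones. Both mice numbered 1, 1 on each diet, stood apart from the other 3 mice for Akr1b3 and Akr1a1. Akr1b3 was lower in them in each of 6 combinations of organ and call, and Akr1a1 was higher in them in 4 of 6. Across libraries, 16 cell barcodes occurred in more than 1, covering 37 cells. In a sum over mixed cells, fewer cells of a type and less RNA per cell cannot be told apart.

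Along the gut, the stem-called cells of the colon carried far more Akr1b8 and Akr1c19 RNA than those of the small intestine, and moderately more Akr1c13. Akr1c12 and Akr1b3 were also called higher, in calls that depended on single mice, as given below. Akr1b8 in stem-called cells was 60.3 and 50.7 CPM in the colon of control mice 1 and 2, and 137, 46.7 and 73.2 CPM in high fat mice 1, 2 and 3. In the proximal small intestine it was 1.94 and 1.24 CPM on the control diet and 10.7, 8.64 and 9.67 CPM on the high fat diet. In the distal small intestine it was 4.95 and 1.48 CPM, and 8.28, 5.60 and 5.52 CPM. The lowest colon sum was thus above every small intestine sum. Against the mean of both parts of the small intestine, with the diets weighted equally, the colon was higher by 4.16 ± 0.24 (log2 fold change ± SE, n = 5 mice; edgeR's quasi-likelihood test, Benjamini-Hochberg adjusted p = 1.1e-08).

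**Figure D1:**
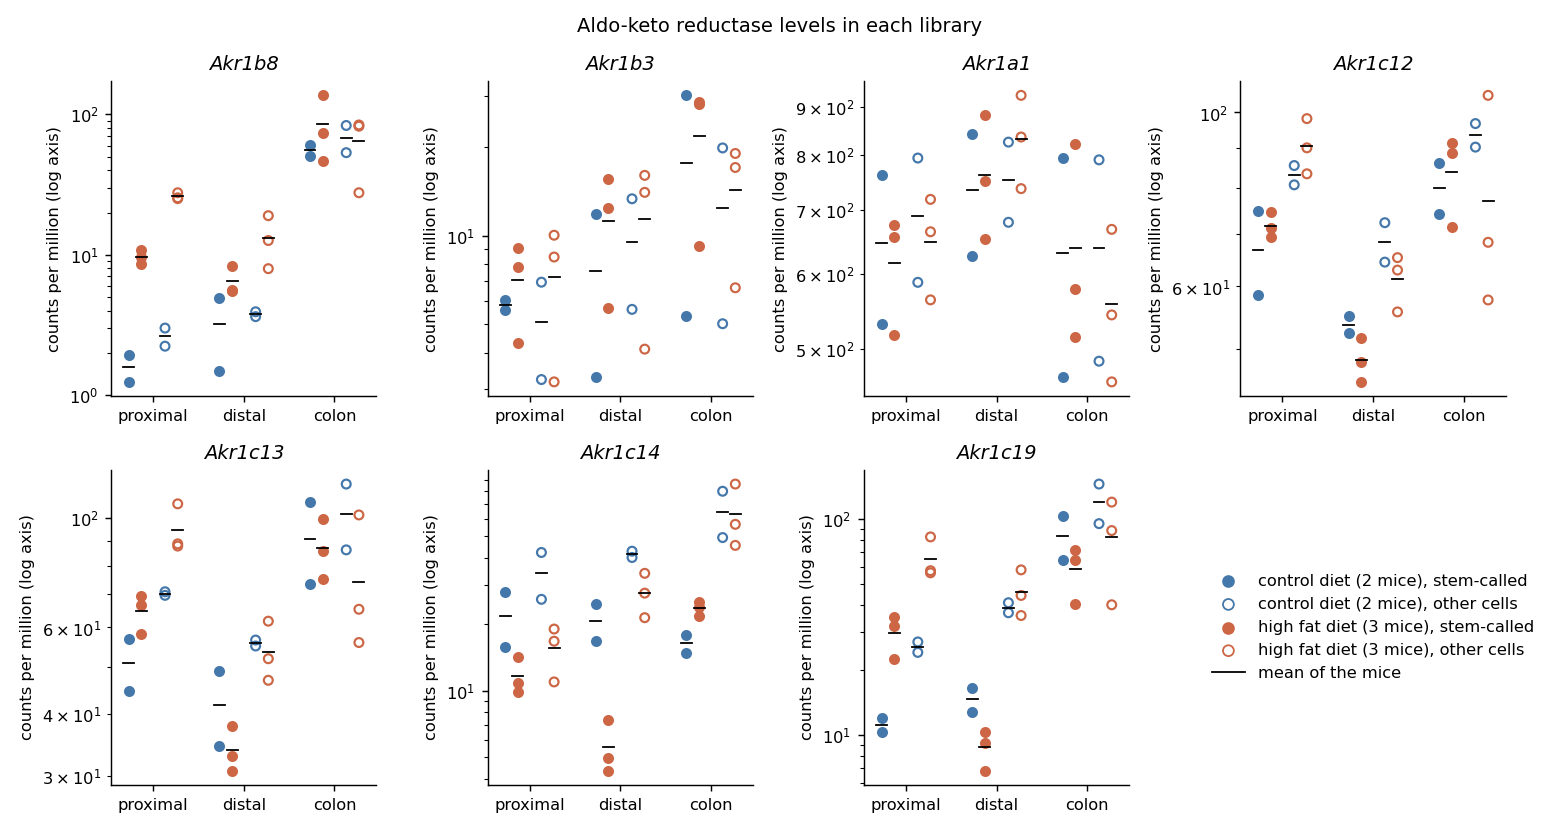
Level of the 7 members (1 panel per gene, CPM on a log axis) in the proximal small intestine, distal small intestine and colon. Points are single mice coloured by diet, filled for stem-called and open for other cells, and short bars are means of the mice. The filled colon points of Akr1b8 and Akr1c19 lie above all of their filled small intestine points, and in the proximal part the 3 high fat points of both genes lie above the 2 control points.

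Akr1c19, a reductase of the C group, was 103 and 64.4 CPM in control colon stem-called cells and 71.7, 40.4 and 64.4 CPM in high fat ones. Its proximal values were 12.01 and 10.3 CPM on the control diet and 31.8, 35.0 and 22.4 CPM on the high fat diet, and the distal values were 16.5, 12.8, 9.16, 6.84 and 10.3 CPM in the same order of mice. No colon value overlapped a small intestine value. The colon was higher by 2.29 ± 0.16 (log2, edgeR adjusted p = 6.0e-08). The order of the organs was colon above proximal above distal on the high fat diet, while on the control diet the distal values exceeded the proximal ones.

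Akr1c13 in stem-called cells ranged from 73.3 to 108 CPM (median 85.9) in the colon, from 44.7 to 69.6 CPM (median 58.2) in the proximal and from 30.8 to 49.0 CPM (median 34.5) in the distal small intestine. The lowest colon value stood above the highest of both parts of the small intestine. The difference was 0.90 ± 0.14 (log2, edgeR adjusted p = 0.000205). Its near copy Akr1c12 ranged from 71.5 to 91.4 CPM in the colon, from 58.6 to 74.9 CPM in the proximal and from 45.3 to 55.0 CPM in the distal part. For Akr1c12 the colon and proximal ranges overlapped, and the colon was higher by 0.46 ± 0.10 (adjusted p = 0.00524). Leaving out control mouse 2 (0.44, adjusted p = 0.052) or high fat mouse 3 (0.43, 0.059) ended this call.

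Akr1b3, aldose reductase, was 5.32 and 30.04 CPM in control and 9.20, 28.0 and 28.5 CPM in high fat colon stem-called cells. In the proximal part it was 5.58, 6.06, 4.29, 9.09 and 7.82 CPM, and in the distal part 3.30, 11.8, 5.67, 12.4 and 15.5 CPM, in the same order. The 3 mice not numbered 1 had a colon level above all of the small intestine values, and the mice numbered 1 did not. The colon was higher by 1.28 ± 0.40 (edgeR adjusted p = 0.0362). Without control mouse 2 the difference was 0.72 (adjusted p = 0.477), and the call was also lost without high fat mouse 2 or 3 (adjusted p = 0.113 and 0.217). The remaining members did not pass in stem-called cells. Akr1a1, at 467 to 822 CPM in the colon, 517 to 763 CPM in the proximal and 626 to 883 CPM in the distal part, had a log2 difference of -0.14 ± 0.16 (adjusted p = 0.677). Akr1c14 had one of 0.58 ± 0.20 (adjusted p = 0.058), which passed with the mouse as a block (0.60, adjusted p = 0.0273), where 26.6% of genes were called. The Akr1c14 difference stood at -0.38 within the control mice and at 1.54 within the high fat mice. In all, 5 of 7 members were called, all higher in the colon, where 18.0% of 12339 genes tested were called and 10.7% were called higher.

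**Figure D2:**
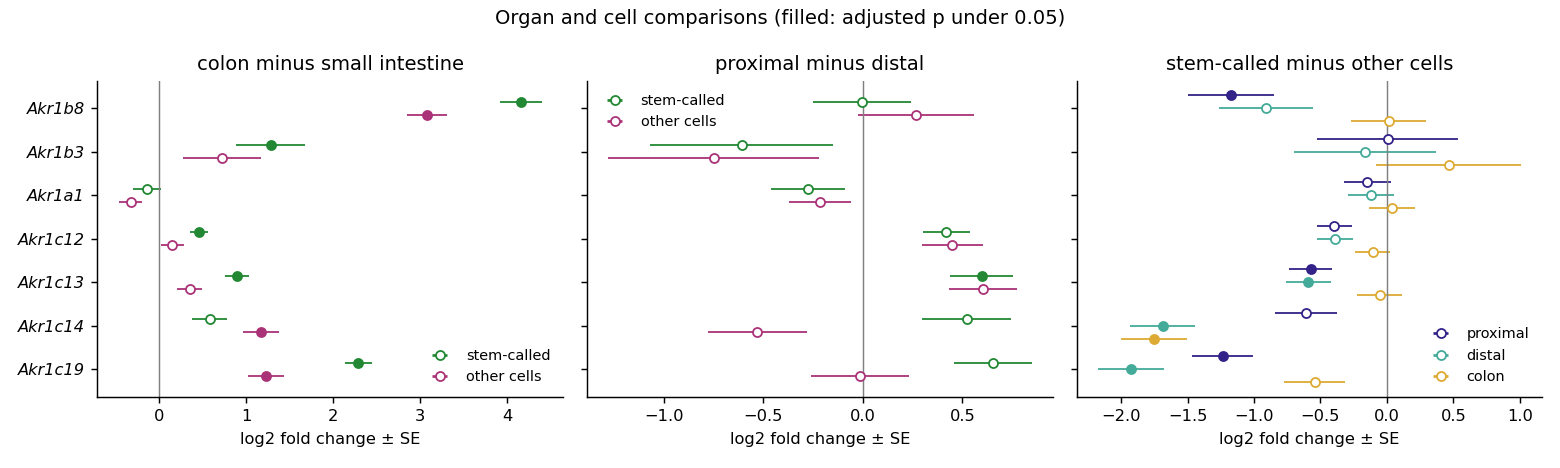
Log2 fold change of each member between colon and small intestine, between proximal and distal small intestine, and between stem-called and other cells of each organ. Points are edgeR estimates, bars are 1 SE, and filled points passed an adjusted p of 0.05. Akr1b8 lies farthest from 0 in the colon comparison, at 4.16 in stem-called and 3.08 in other cells.

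In the other cells of the colon, Akr1b8, Akr1c19 and Akr1c14 were higher than in the small intestine. Akr1b8 was 83.4, 53.4, 84.1, 27.7 and 82.4 CPM in the colon of control mice 1 and 2 and high fat mice 1 to 3, and at most 27.7 CPM in any small intestine sum. The lowest colon value, in high fat mouse 2, met the highest proximal value, and the other 4 lay above every small intestine sum. The difference was 3.08 ± 0.23 (log2, edgeR adjusted p = 1.0e-06). Akr1c19 was higher by 1.23 ± 0.21 (adjusted p = 0.000706) and Akr1c14, the steroid dehydrogenase, by 1.17 ± 0.21 (adjusted p = 0.00101). Akr1c14 in colon other cells was 49.2 and 79.7 CPM on the control diet and 45.4, 56.5 and 85.9 CPM on the high fat diet, all above the 10.97 to 42.7 CPM of the small intestine. The 3 called members stood beside 28.9% of 14307 genes called and 16.4% called higher. With the mouse as a block, 40.0% of genes were called and 3 more members passed, Akr1b3 (0.68, adjusted p = 0.00592) and Akr1c13 (0.34, 0.0453) as higher and Akr1a1 (-0.34, 0.0113) as lower. Markers of the other cell types differed between organs as well. In colon other cells colonocyte markers summed to between 81.1 and 4977 CPM, and in small intestine other cells enterocyte markers summed to between 1551 and 5921 CPM. Their part in these differences was not tested.

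Between the proximal and distal small intestine, with the diets weighted equally, the members differed little. Akr1c13 alone was called, in stem-called cells, where the proximal part was higher by 0.60 ± 0.16 (log2, edgeR adjusted p = 0.0391). Beside this 1 of 7, 5.46% of genes were called and 1.69% were called higher. The adjusted p rose above 0.05 when any 1 of the 5 mice was left out, without control mouse 1 to 0.051 and without control mouse 2 to 0.179, and with the mouse as a block it was 0.000823. Akr1c12 (0.42 ± 0.12, adjusted p = 0.0532) and Akr1c19 (0.65 ± 0.19, adjusted p = 0.0708) passed under the block (adjusted p = 0.0102 and 0.0267), where 10.8% of genes were called. Within each diet the Akr1c19 difference had opposite signs, -0.41 in control mice and 1.72 in high fat mice, and that contrast was not tested. Akr1b8 averaged almost no difference between the 2 parts over the diets (-0.01 ± 0.25). Within the high fat mice the Akr1b8 difference was 0.58, and over the alternatives it ran from -0.59 to 0.68. Akr1c14 (0.52), Akr1a1 (-0.27) and Akr1b3 (-0.61) did not pass. In other cells, no member was called, beside 6.32% of genes (2.32% called higher), and 1 member, Akr1c13 (0.60 ± 0.17, adjusted p = 0.0574), passed with DESeq2 (adjusted p = 0.0158). At an unadjusted edgeR p under 0.05, Akr1c13 (0.00387) and Akr1c12 (0.0114) were below and Akr1c14 (0.0522) was not. Below it were 2648 of 14307 genes. Under the mouse block 14.5% of genes were called, with Akr1c13 (0.61, adjusted p = 0.0176) and, lower in the proximal part, Akr1b3 (-0.72, adjusted p = 0.0259).

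Stem-called cells carried less of several C group members than the other cells of the same organ. In the proximal part Akr1c19 was lower by a log2 difference of -1.24 ± 0.23 (edgeR adjusted p = 0.00223), Akr1b8 of -1.17 ± 0.33 (0.0317) and Akr1c13 of -0.57 ± 0.16 (0.0354). In the distal part Akr1c19 (-1.93 ± 0.25, adjusted p = 3.3e-05), Akr1c14 (-1.69 ± 0.25, 0.000118) and Akr1c13 (-0.59 ± 0.17, 0.0243) were called lower. In the colon only Akr1c14 was called, at -1.75 ± 0.25 (adjusted p = 0.000131), and Akr1b8 was level between the sums at 0.01 ± 0.28. The background of called genes was 6.60% in the proximal part, 11.9% in the distal part and 15.4% in the colon, and of genes called lower 4.05%, 6.62% and 8.93%.

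Per mouse, distal Akr1c19 was 16.5, 12.8, 9.16, 6.84 and 10.3 CPM in stem-called and 40.9, 36.8, 44.2, 58.0 and 35.7 CPM in other cells, a lower value in stem-called cells of every mouse. Colon Akr1c14 was 14.8, 17.9, 23.9, 21.8 and 25.2 CPM in stem-called and 49.2, 79.7, 45.4, 56.5 and 85.9 CPM in other cells, again lower in all 5. With the library as a block, which pairs the 2 sums of 1 library, 5 members were called lower in the proximal part, with Akr1c12 (-0.39, adjusted p = 0.00252) and Akr1c14 (-0.64, 0.00325) added. It called 5 in the distal part, with Akr1b8 (-1.04, 0.00285) and Akr1c12 (-0.40, 0.00335) added, and 2 in the colon, with Akr1c19 (-0.62, 0.000829) added. Under the block 33.4%, 40.2% and 41.3% of genes were called. Several calls of the main fit were lost when a single mouse was left out. The proximal calls of Akr1b8 and Akr1c13 were lost without control mouse 1 (-1.40, adjusted p = 0.078, and -0.65, 0.106), control mouse 2 (-0.88, 0.459, and -0.48, 0.349), high fat mouse 2 (-1.08, 0.073, and -0.50, 0.222) or high fat mouse 3 (-1.18, 0.127, and -0.56, 0.094). That of Akr1c19 was lost without control mouse 2 (-1.13, 0.099). The distal call of Akr1c13 was lost without control mouse 2 (-0.46, adjusted p = 0.291), high fat mouse 2 (-0.52, 0.14) or high fat mouse 3 (-0.54, 0.065). Since the call needs a UMI of Lgr5 or of the reporter, it can favour deeper cells. When the 17958 cells with at least 3000 UMIs were thinned to that depth and called again, leaving out 961 shallower cells, proximal Akr1b8 (-0.88, adjusted p = 0.116) and both Akr1c13 calls (-0.53, 0.095 proximal, and -0.51, 0.091 distal) missed the threshold. In the distal part Akr1b8 (-1.42, adjusted p = 0.014) and Akr1c12 (-0.42, 0.041) then passed it.

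The diet comparison asked how a diet rich in fat changed the intestinal cells. Akr1b8 had been listed because of its diet call in proximal stem-called cells, and the other members were chosen by name with earlier results known. The values of the proximal small intestine are therefore given as a description without a test. Akr1b8 in stem-called cells was 1.59 ± 0.495 CPM (SD, n = 2) on the control diet and 9.68 ± 1.05 CPM (n = 3) on the high fat diet, from 16 and 17 UMIs in the controls and 25, 39 and 47 UMIs in the high fat mice. In other cells it was 2.23 and 3.00 CPM in the controls and 25.1, 27.7 and 25.5 CPM in the high fat mice. The diets did not overlap in either population. The fitted log2 fold changes were 2.65 ± 0.46 in stem-called and 3.33 ± 0.45 in other cells, and across the alternative settings they ran from 2.33 to 2.93 and from 3.10 to 3.64.

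Akr1c19 was also higher in every high fat mouse. It was 12.01 and 10.3 CPM in control and 31.8, 35.0 and 22.4 CPM in high fat stem-called cells, and 24.1 and 26.9 CPM against 56.3, 82.5 and 57.5 CPM in other cells, with fold changes of 1.44 ± 0.27 and 1.40 ± 0.36. Akr1c14 was lower on the high fat diet, at 27.9 and 15.8 CPM against 14.2, 10.9 and 9.87 CPM in stem-called cells and 42.2 and 25.9 CPM against 10.97, 19.0 and 16.7 CPM in other cells, with -0.88 ± 0.30 and -1.06 ± 0.34. Akr1c19 and Akr1c14, from the same cluster on chromosome 13, thus differed in opposite directions. Akr1c13 was higher in every high fat mouse (0.39 ± 0.22 and 0.47 ± 0.24), while Akr1c12 (0.14 and 0.17), Akr1b3 (0.34 and 0.54) and Akr1a1 (-0.03 and -0.04) overlapped between diets in both populations. Higher in every high fat mouse were 3 members in both populations, beside 7.31% of genes in stem-called and 5.98% in other cells, and lower in every high fat mouse was 1, beside 9.78% and 10.4%. The members were chosen with these values known, so nothing is read from those counts.

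**Figure D3:**
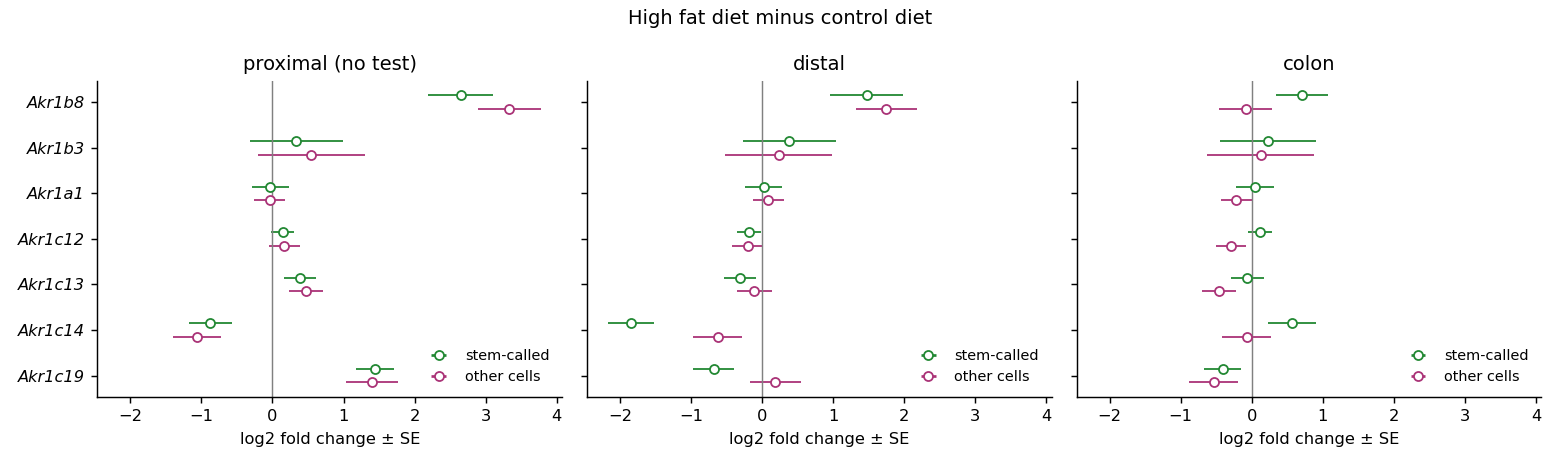
Log2 fold change of each member between the high fat and the control diet in the proximal small intestine, distal small intestine and colon, for stem-called and other cells. Points are edgeR estimates and bars are 1 SE. The proximal values have no test, and in the distal part and colon none of the 7 members passed an adjusted p of 0.05 by edgeR.

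Markers of other cell types moved with diet in the same proximal sums. The 10 enterocyte markers summed to 1184 and 1470 CPM in control and to 1800 to 3015 CPM in high fat stem-called cells, and to 3100 and 3711 CPM against 5099 to 5921 CPM in other cells. The 6 Paneth cell markers summed to 627 and 1331 CPM against 127 to 335 CPM in stem-called cells. Their part in the diet differences was not tested.

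By class of cells, the mean proximal level of Akr1b8 was higher on the high fat diet in each class described next, in some from few UMIs. Clusters were named after marker lists by a rule written after the cells had been clustered, and 47.4% of cells stayed unnamed. In proximal enterocyte-like cells, the absorptive cells of the villus, Akr1b8 averaged 5.13 CPM (4.65 and 5.61) on the control diet and 54.6 CPM (47.0 to 69.6) on the high fat diet. It averaged 2.04 and 25.1 CPM in dividing-like cells (2 mice on each diet), 0.835 and 7.54 CPM in goblet-like cells, and 2.16 and 7.34 CPM in stem-like cells (2 mice on each diet). The goblet-like values rest on 1 and 1 Akr1b8 UMIs in control mice and on 3, 15 and 7 in high fat mice. The stem-like values rest on 18 and 2 UMIs in control mice and on 4 and 3 in high fat mice 2 and 3. Tuft-like cells had 2.27 CPM in control mouse 2 and 2.71 CPM in high fat mouse 3, from 1 UMI each. The unnamed cells, at 1.91 and 14.7 CPM, pool 16 unlike clusters that the diets fill differently, for example 2 control and 861 high fat proximal cells in 1 of them and 495 and 23 in another. Most control enterocyte-like cells (447) fell in 1 cluster and most high fat ones (807) in another, so the class was filled by different clusters on the 2 diets. T-like cells, which should lack the gene, carried 0.982 CPM on the control diet and 28.3 CPM (0 to 47.8) on the high fat diet. Per 1000 enterocyte marker UMIs, Akr1b8 in enterocyte-like cells was 0.537 and 0.557 UMIs on the control diet and 4.66, 3.65 and 3.29 UMIs on the high fat diet. The same ratio was 0, 9.25 and 13.2 in the T-like class of the high fat mice, from 0, 15 and 18 Akr1b8 UMIs.

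**Figure D4:**
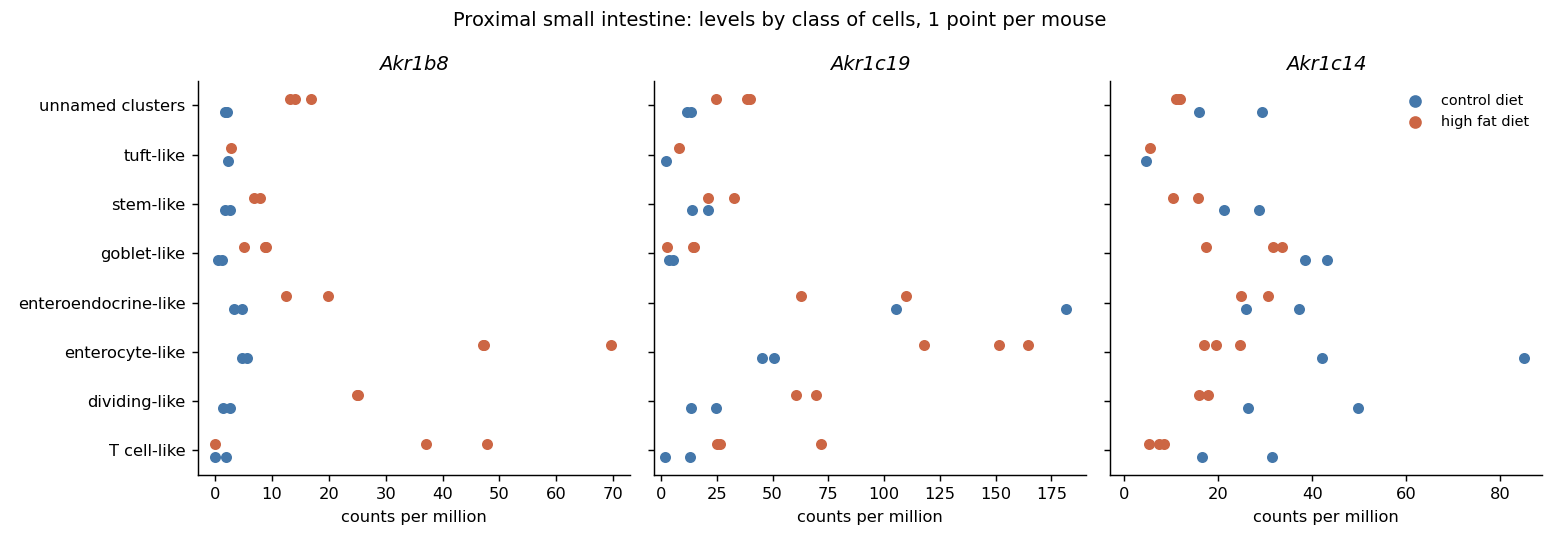
Level of Akr1b8, Akr1c19 and Akr1c14 (CPM, linear axis) in classes of proximal small intestine cells, by diet. Points are single mice with at least 20 cells of the class. In enterocyte-like cells Akr1b8 lies at 4.65 and 5.61 CPM on the control diet and between 47.0 and 69.6 CPM on the high fat diet, while all 3 high fat points of Akr1c14 lie below both control points.

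Other members followed their own pattern over classes. Akr1c19 in proximal enterocyte-like cells averaged 47.9 CPM on the control diet and 145 CPM (118 to 165) on the high fat diet, whereas in proximal enteroendocrine-like cells, the hormone-producing cells, it averaged 143 CPM (105 and 182) and 86.3 CPM (62.9 and 110), with overlap. Akr1c14 in proximal enterocyte-like cells averaged 63.5 CPM (42.0 and 84.9) and 20.4 CPM (17.0 to 24.5), and in goblet-like cells 40.8 and 27.5 CPM. Akr1c12 and Akr1c13 were at 196 and 237 CPM in control proximal enteroendocrine-like cells, above the 110 and 115 CPM of control enterocyte-like cells, with ranges that did not overlap. In the colon, colonocyte-like cells of control mice carried 102 CPM of Akr1b8 (64.1 and 141), 373 CPM of Akr1c19 (142 and 604) and 154 CPM of Akr1c14 (96.7 and 211). The 1 high fat mouse with enough colonocyte-like cells had 113, 216 and 133 CPM.

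In single cells the share with a UMI of Akr1b8 was compared at equal depth, with cells thinned to 3000 UMIs and shallower cells left out. In the proximal part this left out 1 control and 134 high fat other cells, 1 and 20 stem-called cells, and 1 and 1 T-like and B-like cells. On the high fat diet it was 14.1% of 864 proximal enterocyte-like cells (exact 95% interval 11.9 to 16.6), against 1.24% of 484 on the control diet (0.456 to 2.68). T-like and B-like cells of the high fat mice reached 6.33% of 79 cells (2.09 to 14.2), and of the control mice 0 of 78 cells, which allows up to 4.62%. On the high fat diet the share was 2.27% of 793 stem-called, 1.40% of 214 goblet-like and 6.75% of 3539 other cells (10.2%, 9.35% and 21.6% without thinning). None of these 3 shares lay above the interval of the T-like and B-like cells, and the interval of the enterocyte-like cells overlapped it too. At this number of T-like and B-like cells the shares alone therefore do not separate expression in those groups from background UMIs, and their part was not tested. The distal share of Akr1c14 in stem-called cells was 4.88% of 778 on the control diet and 1.22% of 1068 on the high fat diet, against 4.76% of 84 and 2.06% of 97 T-like and B-like cells (intervals 1.31 to 11.7 and 0.251 to 7.25). Neither stem-called share lay above these intervals, and the part of background UMIs in the Akr1c14 difference was not tested. Cells were pooled over the mice of a diet, so the intervals cover counting error only and are no test between diets. Depths of these groups are given as library medians, from 4499 to 15728 UMIs in other cells and from 5261 to 16956 in T-like and B-like cells of the proximal high fat libraries.

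In the distal small intestine none of the 7 members was called between diets. Akr1c14 in stem-called cells was 24.8 and 16.7 CPM on the control diet (45 and 215 UMIs) and 4.36, 4.98 and 7.36 CPM on the high fat diet (20, 8 and 72 UMIs). The diets did not overlap, and the difference was -1.84 ± 0.32 on the log2 scale, with an unadjusted p of 4.6e-05 and an edgeR adjusted p of 0.164 over 12339 genes. DESeq2 called it (-1.85, adjusted p = 0.00939), and over the alternatives the adjusted p ran from 0.00939 to 1. Beside it, the 6 Paneth cell markers in these sums were 2813 and 2234 CPM on the control diet and 1897, 9344 and 16365 CPM on the high fat diet, and their part was not tested. Akr1b8 was 1.48 and 4.95 CPM against 5.52 to 8.28 CPM in stem-called cells (1.47 ± 0.52, adjusted p = 1) and 3.62 and 3.92 CPM against 19.0, 7.96 and 12.6 CPM in other cells (1.75 ± 0.43, unadjusted p = 0.00147, adjusted p = 1). Akr1c19 in stem-called cells was 16.5 and 12.8 CPM against 9.16, 6.84 and 10.3 CPM (-0.68 ± 0.29, adjusted p = 1). Without overlap between diets in stem-called cells were Akr1b8 as higher, beside 7.98% of genes, and Akr1c12, Akr1c14 and Akr1c19 as lower, beside 5.15%. In other cells they were Akr1b8 as higher, beside 9.56%, and Akr1c14 as lower, beside 3.45%. The called background was 0.00810% in stem-called and 0.00699% in other cells, so a count of 0 members is what nearly all genes showed. At an unadjusted edgeR p under 0.05 there were 3 members in stem-called and 1 in other cells, beside 330 of 12339 and 288 of 14307 genes.

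In the colon no member was called between diets either, and no gene at all was called by edgeR (0% of 12339 and 0% of 14307 genes), while DESeq2 called 5 genes in other cells and none of them a member. Akr1b8 in stem-called cells was 60.3 and 50.7 CPM against 137, 46.7 and 73.2 CPM (0.71 ± 0.37), and the diets overlapped. Akr1c14 in stem-called cells was 14.8 and 17.9 CPM against 23.9, 21.8 and 25.2 CPM (0.56 ± 0.34, adjusted p = 1), higher without overlap, as were 5.87% of genes. No member was lower without overlap (7.59% of genes), and in other cells none was higher or lower (6.77% and 4.11% of genes). Akr1c13 and Akr1c19 in other cells had fold changes of -0.45 ± 0.24 and -0.54 ± 0.34. Cells with at least 2 UMIs of 6 immune genes were 95 of 1216 and 117 of 789 other cells in control mice 1 and 2. They were 270 of 470, 106 of 297 and 77 of 902 in high fat mice 1 to 3. Without such cells the median fold change of the 7 members in other cells was -0.09, in place of -0.21. The part of these cells in the diet values was not tested. At an unadjusted edgeR p under 0.05 there was no member in either population, beside 314 of 12339 and 492 of 14307 genes. The diet effect of Akr1c14 in stem-called cells was therefore set against that in the distal part directly. The difference of the 2 diet effects, distal minus colon, was -2.41 ± 0.47 (unadjusted p = 0.000137, edgeR adjusted p = 0.844), and for Akr1b8 in other cells it was 1.84 ± 0.56 (unadjusted p = 0.00645, adjusted p = 1). No gene was called in this comparison by edgeR (0%), and DESeq2 called 1 gene in stem-called and 3 in other cells, none of them a member. At an unadjusted edgeR p under 0.05 there was 1 member in each population, the 1 just named, beside 183 of 12339 and 202 of 14307 genes. The diet comparisons of 1 organ and this one share their mice.

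Other enzymes of aldehyde and alcohol handling were read from lists chosen with earlier results known. Of 13 further aldo-keto reductases, 9 were in the table and 3 could be tested in stem-called cells, where Akr1b10 was higher in the colon (0.82, edgeR adjusted p = 0.0264). The counts that follow stand beside 18.0% of all genes called, 10.7% higher and 7.31% lower. Of 15 tested aldehyde dehydrogenases, which oxidise aldehydes to acids, 4 were higher and 2 lower in the colon, with Aldh4a1 at 4.15, Aldh1a7 at 1.64, Aldh1a1, a retinal dehydrogenase, at 1.08 and Aldh2 at 0.44, and Aldh18a1 at -1.70 and Aldh9a1 at -0.91. Of 11 tested alcohol dehydrogenases and carbonyl reductases, 5 were higher, with Cbr3 at 6.06, Adh1 at 4.28, Dcxr at 1.78 and Cbr1 at 1.29, and 3 lower, with Adh6a at -6.90, Dhrs4 at -1.61 and Dhrs1 at -1.12. In the polyol pathway, Sord, which oxidises the sorbitol made by Akr1b3 to fructose, was higher (0.65, adjusted p = 0.0202) and Khk, fructokinase, lower (-2.49). Of 9 tested NRF2 targets, 7 were higher in the colon, with Nqo1 at 2.11, Slc7a11 at 2.64, Gclm at 1.40 and Gclc at 0.67. The list's median was 0.68, beside a median of 0.00116 over all genes tested.

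In the other cells of the colon the lists held genes called in both directions, beside 28.9% of all genes called, 16.4% higher and 12.5% lower. Of 7 tested aldo-keto reductases, Akr1c18 (6.25), which inactivates progesterone, and Kcnab2 (1.78), a potassium channel subunit of the same fold, were higher, and Akr7a5 (-0.77) and Akr1b7 (-2.32) lower. Of 16 aldehyde dehydrogenases 4 were higher, Aldh4a1 (3.72), Aldh3b2 (2.44), Aldh2 (0.67) and Aldh1a1 (1.06), and 5 were lower, led by Aldh18a1 (-1.99), Aldh9a1 (-1.34), Aldh1b1 (-1.22) and Aldh5a1 (-0.74). Of 14 alcohol dehydrogenases and carbonyl reductases 7 were higher, with Adh1 at 2.42, Cbr2 at 11.33, Cbr3 at 5.41 and Dcxr at 1.72, and 4 lower, with Adh6a at -5.66, Dhrs4 at -1.41, Adh4 at -7.29 and Dhrs1 at -1.09. Sord was at 0.55 and Khk at -3.38. Of 10 NRF2 targets 3 were higher, Slc7a11 (3.10), Gclm (0.78) and Nqo1 (0.56), and Gsr (-0.53) was lower. The median of the NRF2 list was 0.23 here, beside -0.01 over all genes tested.

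In the proximal against the distal part, where 5.46% of all genes in stem-called and 6.32% in other cells were called, stem-called cells had higher Adh6a (4.10), Adh1 (3.40), Dhrs4 (0.96) and Khk (1.48), and lower Sord (-1.34), Aldh1l2 (-4.74) and Srxn1 (-1.16), and no further aldo-keto reductase was called. In other cells 7 of 14 alcohol dehydrogenases and carbonyl reductases were higher in the proximal part, with Adh1 at 2.99, Adh6a at 4.48, Dhrs4 at 1.23 and Adh7 at 5.66. Also called there were Aldh18a1 (0.65) and Khk (1.76) as higher and Aldh4a1 (-1.26), Aldh3b2 (-1.46), Sord (-1.77) and Slc7a11 (-2.48) as lower. Between diets in the distal part and colon, no gene of the 5 lists was called. In the proximal part, as a description, Aldh1a1 was higher on the high fat diet by 2.08 in stem-called and 2.69 in other cells. Aldh1a7 was higher by 1.52 and 2.11 and Cbr3 by 1.26 and 1.97, and Aldh1l2 was lower at -3.12 and -2.18. Of the aldehyde dehydrogenases there, 9 were positive and 6 negative in stem-called cells (median 0.10), and 10 and 6 in other cells (0.23). Alcohol dehydrogenases and carbonyl reductases stood at 9 and 1 (0.14), and at 10 and 3 (0.59). Stem-called cells had less Nqo1 than other cells in the proximal (-1.58) and distal (-1.62) part, with 3 of 9 and 4 of 9 NRF2 targets called lower (4.05% and 6.62% of all genes). In the colon 2 of 9, Gclm (0.50) and Gsr (0.45), were called higher (6.47% of all genes). The other lower NRF2 targets were Srxn1 (-1.61) and Pgd (-0.65) in the proximal and Pgd (-0.61), Srxn1 (-1.04) and Gsr (-0.49) in the distal part. Of the aldehyde dehydrogenases, Aldh7a1 was higher in stem-called cells of all 3 organs (0.61, 0.78 and 0.55 from proximal to colon) and Aldh3b1 lower (-1.35, -1.20 and -1.33). Aldh1a1 was lower in the proximal part (-1.58) and the colon (-1.29). Adh6a was lower in the proximal (-1.91) and distal (-1.56) part. Sord was higher in stem-called cells of the proximal part (0.86) and colon (0.72), and Khk lower in the proximal part (-1.03). Of the further aldo-keto reductases, Kcnab2 was lower in the distal part (-2.48) and colon (-2.43), and Akr7a5 higher in the colon (0.50).

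Over the 15 sums of stem-called cells, which share organs and mice, the genes whose log2 levels (10 CPM added) followed a member most closely among 12339 were, by Pearson's r and as a description, Idh1 (0.97), Cbr3 (0.96) and Lpo (0.96) for Akr1b8. For Akr1c19 they were Nqo1 (0.95), Lacc1 (0.93) and Cbr1 (0.93). Cbr1 and Cbr3 are carbonyl reductases and Nqo1 reduces quinones. For Akr1c13 they were Slc25a4 (0.94), Bin1 (0.93) and Parp3 (0.92), and for Akr1c12 Scarb1 (0.93), Dmbt1 (0.92) and Bin1 (0.91). Akr1b3 was followed by Gpr20 (0.96), Ftl1 (0.94) and Slc35a3 (0.93), and Akr1a1 by Tbcd (0.92), Abhd11 (0.90) and Lgals4 (0.90). Akr1c14 had the loosest followers, Shank2 (0.81), Gpr137 (0.76) and Mdm2 (0.76). Among members the closest pairs were Akr1c13 with Akr1c19 (0.90), Akr1b8 with Akr1c19 (0.89) and Akr1c12 with Akr1c13 (0.89).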

How the data were processed

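Single-cell libraries of 5 mice and 3 organs were compared. The deposited values are raw UMI counts per gene and cell, which the authors made against mm10 per the labels. The aligner, counting tool and annotation are not given in the sources used here. The whole numbers of each cell summed to the total in the authors' cell table in all 18919 cells, and no cell filter was added. That table numbers the control mice 1 and 3, so its mouse 3 must be the one titled control mouse 2, the only one left. Rarely seen genes appear to have been removed within each library, so a 0 gives no limit, but every member had a UMI in at least 22 cells of every library.

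Counts were summed per mouse, organ and stem call and tested with edgeR 4.0.16 in R 4.3.3 (TMM, filterByExpr, glmQLFit and glmQLFTest), with Benjamini-Hochberg adjustment over all 12339, 14307 or 13544 genes tested and a threshold of 0.05. The scripts were tested on simulated counts. DESeq2 1.42.0, limma 3.58.1 (voom), other filters, blocks and left-out mice were alternatives. No label says that the mice are separate cages or litters, so p-values measure the spread between these mice. Sums of the same mouse deviated together across organs (correlations of 0.144 to 0.756 in stem-called and 0.115 to 0.760 in other cells, all 15 pairs over 0.1 in each), and organs come from the same animals, so mice pair them. Cells were clustered with scanpy 1.11.5 and leidenalg 0.10.2 into 37 clusters, of which 16 stayed unnamed, and 238 cells were marked as doublets and kept. The 7 members, marker lists and enzyme lists were chosen with earlier results of these data known. Not every member is named in the text of every comparison, and a member left unnamed was not called there in the main edgeR fit. Between organs, the called genes of each list with the smallest p are named, up to 4 in each direction. Between stem-called and other cells only some of the called list genes are named, so an unnamed list gene may have been called. Likeness genes are the 3 with the highest r.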

Additional observations from a re-analysis of the deposited data

Results flagged for a closer look

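Akr1c14 in stem-called cells differed between diets in opposite directions in 2 organs, with every mouse of 1 diet on the same side of the other diet. The log2 fold change of the high fat against the control diet was -0.88 in the proximal part and 0.56 in the colon. The difference between these organs was not tested.

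Akr1c19 in stem-called cells likewise had a positive fold change in the proximal part (1.44) and a negative one in the distal part (-0.68), with no overlap between the diets in either. This difference was not tested.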

How the results depend on the processing

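Counts of members called are given here, main value first. For colon against small intestine, 5 stem-called members became 3 in control mice only, 3 with the stem call made at equal depth and 3 to 6 with 1 mouse left out, and 3 in other cells became 2 within each diet (control mice only lost Akr1c14, high fat mice only lost Akr1c19) and 6 with the mouse as replicate block. For proximal against distal stem-called cells, 1 became 0 in control mice only, 2 in high fat mice only, 2 with DESeq2, 2 with limma voom, 3 with the mouse as replicate block and 0 whichever mouse was left out. In other cells 0 became 1 with DESeq2, 1 with limma voom, 1 in high fat mice only, 1 without cells carrying immune UMIs and 2 with the block. For stem-called against other cells, the library as replicate block gave 5 in place of 3 in the proximal part, 5 in place of 3 in the distal part and 2 in place of 1 in the colon. Leaving out 1 mouse gave 0 to 3 in the proximal part, 2 to 3 in the distal part and 1 to 2 in the colon, the call at equal depth gave 1 in the proximal and 4 in the distal part, and dropping cells with immune UMIs gave 2 in the colon. For diet in distal stem-called cells DESeq2 called 1 member (Akr1c14) in place of 0.

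Without thinning, 21.6% of proximal high fat other cells had an Akr1b8 UMI, in place of 6.75%. Of 1015 alternative values of tested member results, 77 had the other sign, none of them called in either fit. The reported values that changed sign were at most 0.77 in size. Untested ratios within the deeper mice, control mouse 2 and high fat mouse 3, are not in that count. For diet in colon other cells, 0 of 7 members kept the main direction there. It was 3 for the diet effect of distal against colon in other cells, and 5 to 7 in the other comparisons. Counts over all genes also moved. Proximal against distal stem-called cells gave 674 genes and from 169 (control mice only) to 1336 (replicate block), with 394 and 305 without control mouse 1 and 2 and 392 and 330 without high fat mouse 2 and 3. In other cells 904 became 93 in control mice only and 2071 under the block. Colon against small intestine gave 2225 stem-called genes, with 1100 in control mice only, and 4134 in other cells, with 1494. Stem-called against other cells gave 894, 1618 and 2085 genes from proximal to colon, which became 152, 391 and 187 without control mouse 2 and 4525, 5444 and 5587 under the block. The distal diet comparison gave 1 gene in each population, and 9 and 16 with DESeq2.

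Control and high fat mice share only a number in the labels. Same-numbered mice correlated at 0.0282 to 0.398 in stem-called and 0.103 to 0.615 in other cells. With that number as replicate block the distal diet comparison called 9 stem-called and 4 other genes and the colon comparison 10 other genes, and 0 members in all of them. The split into mice numbered 1 and the others was chosen after seeing the data. The depth of the sums limits Akr1b8 and Akr1b3 most, at 6 to 20 UMIs in several stem-called sums.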
